A study of Mus musculus with 6 samples.

Results

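Annexins and formyl peptide receptors were followed in single cells of mouse bone marrow: 8 annexin genes (Anxa1, Anxa2, Anxa3, Anxa4, Anxa5, Anxa6, Anxa7 and Anxa11) and 2 receptor genes (Fpr1 and Fpr2). They are 10 of the 32285 genes in the files and were taken by gene symbol. They were chosen with earlier results of these data known, among them a higher level of Anxa1 in granulocyte-monocyte progenitors (GMPs) of brequinar-treated mice. That difference is therefore described here without a test.

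The study asked how brequinar (BRQ), an inhibitor of the pyrimidine synthesis enzyme DHODH, alters myeloid progenitors in mice with mammary tumors. Marrow was enriched for c-Kit, a surface receptor of progenitors, with magnetic beads, and UMIs (molecules counted by their barcodes) were measured in single cells. Each of 3 pools held 1 mouse of each group, told apart by hashtag antibodies, so there were 3 mice per group and 9 mice in all, and the mice of a pool shared a lane and its free RNA. All mice were female BALB/c and 10 weeks old at harvest. Non-tumor-bearing (NTB) mice carried no tumor. Vehicle mice carried 4T1 tumors, grown from a mouse mammary carcinoma line in the mammary gland, and were given DPBS by daily intraperitoneal injection for 2 weeks once tumors were measurable. BRQ mice carried the same tumors and were given brequinar at 10 mg/kg on the same schedule. No group had brequinar without a tumor.

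Annexins are cytosolic proteins that bind acidic phospholipids of membranes when calcium rises, and several of them act in membrane repair, vesicle traffic and exocytosis. Anxa1, which glucocorticoids induce, is abundant in neutrophils, and when released it acts on formyl peptide receptors to limit neutrophil recruitment. Formyl peptide receptors are G protein-coupled receptors of phagocytes that sense formylated peptides of bacteria and mitochondria and drive chemotaxis and the oxidative burst.

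Anxa1 lies on the minus strand of chr19:20373428-20390944 (ENSMUSG00000024659) and Anxa2 on the plus strand of chr9:69453620-69491795 (ENSMUSG00000032231), both in GRCm38 coordinates. Fpr1 (chr17:17876471-17883940, minus strand, ENSMUSG00000045551) and Fpr2 (chr17:17887824-17893952, plus strand, ENSMUSG00000052270) stand head to head, with 3884 bases between their starts. In the annotation 6101 of the 6129 bases of Fpr2 lie inside the span of Fpr3, and reads of the shared bases may have been left unassigned by the counting. Bases near the starts of 4 members are shown, Anxa1 for its level in GMPs, Anxa2 and Fpr1 for their levels in neutrophil-like cells, and Fpr2 as the neighbour of Fpr1 and the receptor of Anxa1, from RefSeq's GRCm38.p6, 5′ to 3′ on the gene's strand, with motif matches in capitals. Anxa3 and Anxa6 had no entry in the promoter table. The RefSeq start of Anxa1 lies inside the gene as given above, and the bases searched before it also lie inside that gene. For Anxa1 only 30 bases are given, around its C/EBP match (C/EBP factors act in granulocyte genes), at chr19:20390796-20390825. For Anxa2 the run covers chr9:69453433-69453619 and the capitals mark an AP-1 match. For Fpr1 (chr17:17883941-17884189) and Fpr2 (chr17:17887574-17887823) the capitals mark C/EBP and TATA matches, and for Fpr2 also 1 PU.1 match on the opposite strand, TTCCTC.
Anxa1: tccgggagtagTTTTGCAAgacttgtttct
Anxa2: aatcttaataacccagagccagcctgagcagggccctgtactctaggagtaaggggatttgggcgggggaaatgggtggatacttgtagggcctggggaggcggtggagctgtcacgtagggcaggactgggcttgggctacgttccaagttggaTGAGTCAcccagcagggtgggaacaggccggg
Fpr1: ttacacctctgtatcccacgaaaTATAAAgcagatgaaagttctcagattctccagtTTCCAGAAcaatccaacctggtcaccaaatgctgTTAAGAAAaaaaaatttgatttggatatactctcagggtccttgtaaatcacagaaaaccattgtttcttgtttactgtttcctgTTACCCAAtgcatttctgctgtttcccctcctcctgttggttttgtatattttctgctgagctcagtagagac
Fpr2: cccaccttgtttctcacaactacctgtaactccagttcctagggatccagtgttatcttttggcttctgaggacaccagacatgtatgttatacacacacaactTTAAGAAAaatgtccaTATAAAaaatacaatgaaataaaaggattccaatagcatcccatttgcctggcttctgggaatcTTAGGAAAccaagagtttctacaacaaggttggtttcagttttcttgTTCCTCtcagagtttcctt

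Motifs were searched on both strands in the 250 bases before the start of Anxa1, Anxa2, Fpr1 and Fpr2. These are among the 8 members found in the promoter table, and matches in the others are not given. The letters TTNNGNAA of C/EBP occurred in windows of Anxa1 (143 to 136 bases before the RefSeq start), Fpr1 (3 matches) and Fpr2 (2 matches), and in 36.8% of 32851 promoters of the same length. The letters TGANTCA of AP-1 occurred in the Anxa2 window, 95 to 89 bases before the RefSeq start, and in 6.7% of promoters. GAGGAA of PU.1, a myeloid factor, was found in 23.3% of promoters and TATAAA in 12.4%. The Anxa1 window also held TATAAA, 32 to 27 bases before the RefSeq start, and GAGGAA, 227 to 222 bases before it. In the Anxa2 window TATAAA lay 17 to 12 bases before the RefSeq start. These matches of Anxa1 and Anxa2 lie outside the bases shown. A match is a description of the letters only.

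The 3 pools gave 39488 barcodes, of which 32762 passed the filters, with a median of 7445 to 7996.5 UMIs per barcode in each pool. Hashtags assigned 15966 cells to a single mouse, with 382 to 2780 cells per mouse. Between 38 and 48 barcode sequences occurred in both pools of a pair. GMPs were 3916 cells over a limit of Ms4a3 (ln of 1 plus UMIs per 10000 over 3), and 3295 of them lay up to 0.5 above it, against 3075 cells up to 0.5 under it. Other classes were named from clusters by marker genes and carry "-like". Despite the enrichment for c-Kit, 3997 cells were neutrophil-like. Their Kit level, the transcript of the enriched receptor, was 14.4 to 110.2 unscaled CPM, against 201.8 to 327.4 in HSC/MPP-like cells (hematopoietic stem cells and multipotent progenitors) and 38.5 to 82.0 in GMPs. Values per mouse below are CPM, UMI counts divided by a library size that was scaled with TMM factors, and unscaled CPM use the plain total of UMIs. In mice with fewer GMPs (88 to 177 in NTB mice and 95 in vehicle mouse 2), levels rest on fewer UMIs.

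Every member was detected. In the cells that passed the filters Anxa1 had 157136 UMIs, in 55.989% of cells, and Anxa3, a neutrophil-granule annexin, had 107018 in 69.794%. Fpr2 had 24524 UMIs, in 25.954% of cells, and Fpr1 had 2273 in 5.021%. Of the 9 remaining genes of both families in the files, Anxa9 had 1448 UMIs, Fpr3 had 6, Anxa10 and Anxa13 had 1 each, and Anxa8, Fpr-rs3, Fpr-rs4, Fpr-rs6 and Fpr-rs7 had none.

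The members fell into distinct patterns over 8 cell classes. Clusters were made without the members, but the genes used move with them, so differences between classes are described with medians and ranges over mice and without tests. Anxa1 was highest in neutrophil-like cells, with a median of 1946.4 CPM (1261.2 to 2469.6 in 9 mice), and this range did not overlap that of any other class. Next came basophil/mast/eosinophil-like cells at 247.2 (162.3 to 426.1, 3 mice) and macrophage-like cells at 227.3 (61.9 to 466.2, 3 mice). Monocyte-like cells (122.8), GMPs (105.4) and erythroid-like cells (86.3, range 59.4 to 139.9) followed with overlapping ranges, and HSC/MPP-like cells were lowest at 46.8 (38.9 to 56.5). Erythroid-like cells are not known for granulocyte transcripts, and their values are set beside those of GMPs below. They are a comparison and not a measure of the free RNA of a lane, as other classes lay lower for Anxa1, Anxa6 and Fpr2, and 14.41% and 7.99% of the cells in the 2 erythroid-like clusters were marked as doublets by Scrublet.

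Fpr2, the receptor on which Anxa1 acts, had the same leading class, with a median of 380.1 CPM in neutrophil-like cells (278.3 to 719.0). Its levels in erythroid-like cells (18.1, range 10.4 to 25.9) lay above those in GMPs (6.3, range 3.6 to 9.8) and HSC/MPP-like cells (2.7, range 0 to 4.8) and overlapped those in monocyte-like cells (5.9). Macrophage-like cells, at 57.1 (20.6 to 58.1), overlapped the erythroid-like range. Fpr1, the high-affinity receptor of formylated peptides, had a median of 42.4 CPM in neutrophil-like cells (6.9 to 108.7) and medians of at most 5.3 elsewhere. Neutrophil-like cells thus had the highest median of both receptors, though for Fpr1 their range overlapped the 0 to 10.3 of macrophage-like cells. Anxa2, which forms a complex with S100a10 at the plasma membrane, led in neutrophil-like cells at 412.7 CPM (161.8 to 800.0), followed by monocyte-like cells at 122.5 (101.0 to 137.9). Anxa11, an annexin that binds ALG-2 (Pdcd6), also led there at 127.0 (118.3 to 194.0), against 39.4 in HSC/MPP-like cells and 32.0 in GMPs.

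Anxa3 had high levels in basophil/mast/eosinophil-like cells (505.0 CPM), GMPs (428.2, range 388.5 to 496.0) and neutrophil-like cells (410.9, range 205.2 to 457.1), which overlapped, and low levels in HSC/MPP-like cells (21.7). Anxa4, an annexin of membrane trafficking, stood at 85.6 in macrophage-like cells (63.4 to 165.1) and 36.8 in HSC/MPP-like cells (26.4 to 45.8). Its range in HSC/MPP-like cells overlapped neither that of macrophage-like cells nor the 7.7 to 13.2 of monocyte-like cells, and GMPs had 5.4. Anxa5, the annexin used as a probe of dying cells, was highest in macrophage-like cells at 361.5 (211.4 to 392.1), then in monocyte-like cells at 94.5 and HSC/MPP-like cells at 64.6, whose ranges overlapped. Anxa6, a larger annexin with a doubled core that organizes membranes and endosomes, had its highest median in macrophage-like cells at 47.6, near the 47.3 of basophil/mast/eosinophil-like cells and overlapping the 26.4 to 57.7 of monocyte-like cells, while GMPs (3.9 to 13.9) overlapped erythroid-like cells (6.5 to 13.5). Anxa7, which takes part in exocytosis, varied least, with medians of 37.2 to 94.7 and overlapping ranges between all neighbours in the order. The heat map of medians shows these patterns side by side.

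**Figure D1:**
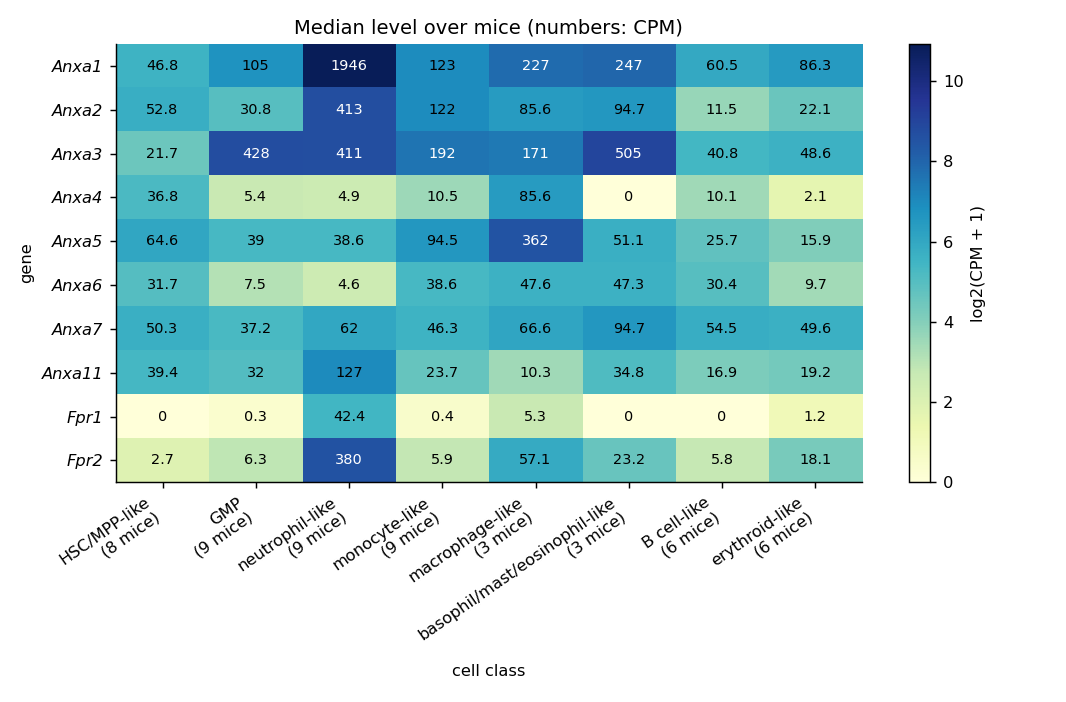
Median level over mice (numbers, CPM; color, log2 of CPM plus 1) of the 10 members (rows) in 8 cell classes (columns, with the number of mice). Anxa1, Anxa2, Anxa11, Fpr1 and Fpr2 have their highest median in neutrophil-like cells, and Anxa4, Anxa5 and Anxa6 in macrophage-like cells.

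The gene whose level was most like that of Anxa1 over 50 sums of a mouse and class, among 5926 genes with a mean of at least 20 CPM, was Gnb2, a G protein subunit, with Pearson r = 0.955. Lcn2 (0.952), Chil3 (0.95) and Sqor (0.948) followed. For Fpr2 the nearest genes were Lcn2 (0.974), Ltf (0.963), Ifitm6 (0.963), Ly6g (0.961) and Chil1 (0.96), of which Lcn2 and Ltf encode proteins of neutrophil granules. These are descriptions over sums that share mice and lanes.

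In GMPs Anxa1 had 141.7, 87.2 and 105.4 CPM in NTB mice 1, 2 and 3, numbered by pool. Vehicle mice had 98.0, 78.3 and 69.3 CPM, and BRQ mice had 281.9, 159.6 and 423.7. All BRQ mice lay above every mouse of the other groups, and BRQ mouse 2 was the nearest to them. Means were 111.4 ± 27.8 (SD, n = 3) in NTB, 81.9 ± 14.7 in vehicle and 288.4 ± 132 in BRQ mice. The fitted log2 difference of BRQ from vehicle was 1.79 ± 0.22 (SE), and leaving out 1 mouse at a time moved it between 1.41 (without BRQ mouse 3) and 2.08 (without BRQ mouse 2). Within pools 1, 2 and 3 the level in BRQ was 2.88, 2.04 and 6.11 times that in vehicle. Because this difference helped to choose the genes, it is given with no p.

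The higher Anxa1 level was seen in each of the 3 clusters that held most GMPs. In cluster 0, led by Ctsg, Nkg7 and Prtn3, Anxa1 had 203.5, 112.6 and 350.4 CPM in BRQ mice, against 41.2 to 66.7 in vehicle and 29.0 to 71.6 in NTB mice. In cluster 1, led by Fcnb and Lipg, BRQ mice had 479.8, 239.9 and 782.7, against 159.1 and 87.0 in the vehicle mice with at least 20 such cells. In cluster 2, led by Fkbp11 and Serpine2, BRQ mice had 246.4, 179.4 and 354.8, and the same vehicle mice had 69.0 and 57.7. BRQ and vehicle mice did not overlap in any of these clusters, nor did BRQ and NTB mice in clusters 0 and 1, and no NTB mouse had 20 GMPs of cluster 2. The share of GMPs in the clusters differed between groups. Cluster 2 held 3.41 to 7.41% of GMPs in NTB, 12.63 to 14.88% in vehicle and 22.33 to 49.0% in BRQ mice. Cluster 0 held 52.54 to 67.05%, 55.79 to 64.36% and 22.36 to 53.05%.

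**Figure D2:**
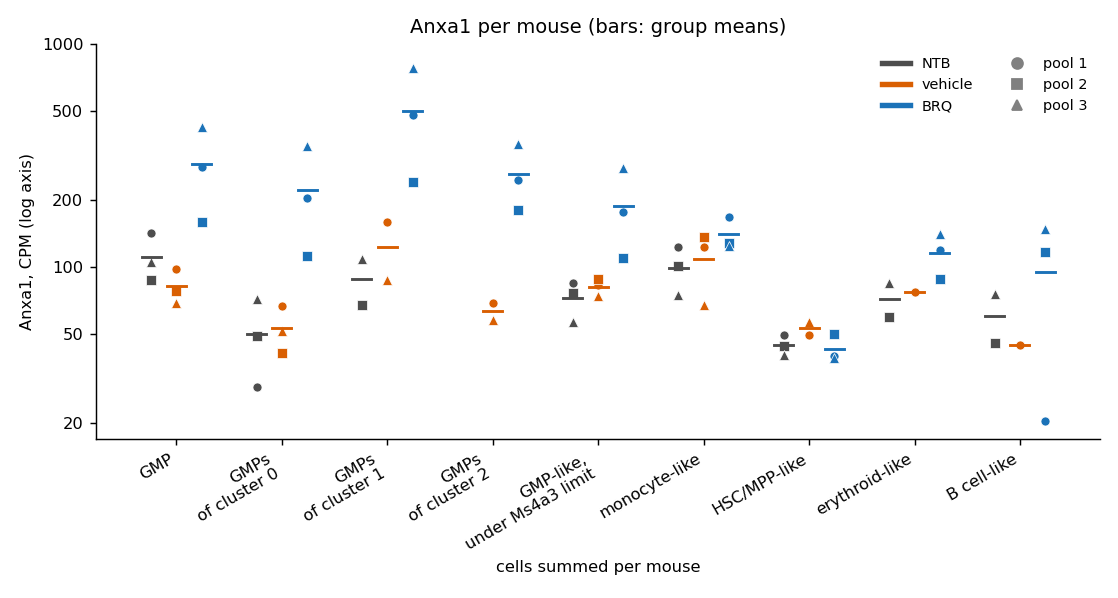
Anxa1 level (CPM, log axis) in each mouse with at least 20 cells of a class (points; shape, pool; color, group; bars, group means). In GMPs the 3 BRQ mice sit between 159.6 and 423.7 CPM, above all NTB and vehicle mice, whereas in HSC/MPP-like cells the groups lie between 38.9 and 56.5.

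More cells carried Anxa1 in BRQ mice. With each GMP thinned to 5000 UMIs, the share of GMPs with an Anxa1 UMI was 18.2 to 20.8% in NTB, 15.5 to 21.3% in vehicle and 29.3 to 60.7% in BRQ mice (unthinned, 28.9 to 32.2%, 32.6 to 36.2% and 42.7 to 78.6%). Thinning left out 38 of 400, 41 of 1401 and 58 of 2115 GMPs. In erythroid-like cells the thinned share was 7.8 to 23.9%, a range that held all NTB and vehicle GMP shares and none of the BRQ shares. By group, it was 13.2 to 15.8% in NTB mice 2 and 3, 14.3% in vehicle mouse 1 and 7.8 to 23.9% in BRQ mice, below the GMP shares of the same group in each group. GMPs had medians of 10828.5 to 17966 UMIs per cell and erythroid-like cells 15683.5 to 21806. The share of thinned GMPs with at least 5 Anxa1 UMIs was 0.8 to 4.9% in NTB, 1.5 to 2.2% in vehicle and 5.6 to 19.7% in BRQ mice. The 10% of GMPs richest in Anxa1 held 42.5 to 66.5% of its UMIs in BRQ mice and 69.2 to 83.1% in the other mice, a share that falls by itself as UMIs per cell rise.

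**Figure D3:**
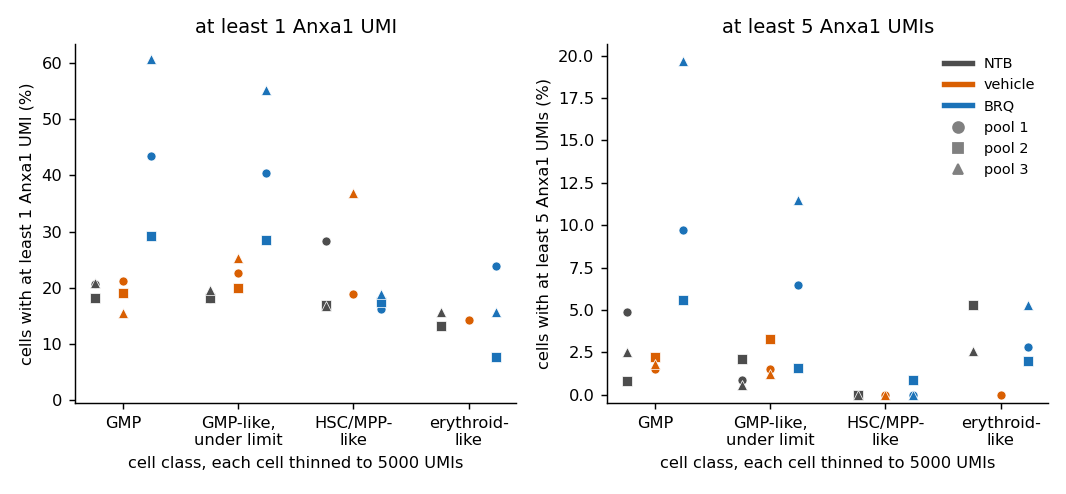
Share of cells (%) with at least 1 (left) and at least 5 (right) Anxa1 UMIs after thinning each cell to 5000 UMIs, per mouse (points; shape, pool; color, group). GMPs of BRQ mice reach 29.3 to 60.7% and 5.6 to 19.7%, and erythroid-like cells 7.8 to 23.9% at the lower count.

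Markers of other cell types were measured in the same GMPs. The neutrophil granule genes Camp, Ltf, Lcn2 and Ngp summed to 3697.4 to 4227.8 unscaled CPM in NTB, 1278.3 to 2680.0 in vehicle and 1002.4 to 2451.8 in BRQ mice. These 4 genes were chosen after seeing the data. In GMPs with at most 5 UMIs of these 4 genes, Anxa1 was at 22.2 to 81.8 unscaled CPM in NTB (220 cells), 38.2 to 59.0 in vehicle (741 cells) and 156.3 to 348.1 in BRQ mice (1189 cells). In GMPs with none of these UMIs it was at 243.6 to 293.2 in BRQ mice (78 cells), at 27.8 to 79.7 in NTB mice (24 cells) and at 0 to 32.7 in vehicle mice (59 cells). The subsets were set by these 4 genes alone, none of which was called higher in BRQ than in vehicle, and not by the neutrophil markers that were. All 14 neutrophil markers summed to 46340.3 to 49782.9 unscaled CPM in NTB, 33653 to 37390.4 in vehicle and 26286.5 to 37711.8 in BRQ mice, with none at 0. Between BRQ and vehicle 4 of the 14 rose (Chil3 by 1.42 on the log2 scale, Mmp8 by 1.34, Retnlg by 0.89 and Ly6g by 0.58) and S100a9 fell. The 9 monocyte markers summed to 59.1 to 72.5 in NTB, 55.4 to 69.5 in vehicle and 100.2 to 152.5 in BRQ mice, and of 6 tested F13a1, Csf1r and Ms4a6c rose. Klf4, Ccr2, Ly86 or Ctss were at 0 in NTB mice (88 to 177 GMPs) and in vehicle mouse 2 (95 GMPs). None of the 9 was at 0 in vehicle mice 1 and 3 (1017 and 289 GMPs) or in BRQ mice (653 to 806 GMPs). The mice with zeros were those with the fewest GMPs, so nothing is read from the zeros. Erythroid markers summed to 16.9 to 43.2 and B cell markers to 16.4 to 45.0 over the 9 mice. The part of the neutrophil and monocyte markers in the Anxa1 level was not tested.

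The level was also higher in the 3505 cells of GMP-like clusters that lay under the Ms4a3 limit, which came from the same mice. There NTB mice had 85.2, 76.3 and 56.4 CPM of Anxa1, vehicle mice 83.4, 88.0 and 73.9, and BRQ mice 177.3, 109.8 and 278.3. BRQ mouse 2 was again the lowest of its group and still above the other mice. The log2 difference from vehicle was 1.23 ± 0.20, and the ratios within pools were 2.13, 1.25 and 3.77. In erythroid-like cells NTB mice had 59.4 and 84.5 CPM, the vehicle mouse 77.1 and BRQ mice 119.0, 88.2 and 139.9, so the 3 BRQ mice lay above the other mice there too.

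The other annexins differed less in GMPs. For BRQ against vehicle 9 members were in the fit, as Fpr1 had too few counts. Anxa1 is not counted, as its difference chose the genes, and of the 8 others Anxa2 and Anxa6 were higher and none lower at an edgeR adjusted p under 0.05, beside 13.4% of all 10331 genes called in either direction. The BRQ and vehicle groups did not overlap in 4 of the 9, Anxa1 among them, beside 30.7% of all genes. The genes were chosen on this comparison, so these counts are a description and nothing is read from them. The call of Anxa6 was lost with DESeq2, with another hashtag call (log2 0.51), without vehicle mouse 1 (0.81) and without BRQ mouse 3 (0.54). The median log2 difference was 0.34 over the members and 0.00 over all genes. Anxa2 had 26.2, 30.7 and 30.8 CPM in NTB, 24.7, 32.0 and 26.2 in vehicle mice and 43.3, 33.0 and 45.6 in the BRQ group. BRQ mouse 2 lay just above the highest vehicle mouse, with ratios within pools of 1.75, 1.03 and 1.74, and the log2 difference was 0.64 ± 0.12. The share of thinned GMPs with an Anxa2 UMI was 16.1 to 23.4% in BRQ, 10.7 to 15.7% in vehicle, 6.1 to 13.8% in NTB mice and 3.9 to 11.9% in erythroid-like cells.

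Anxa6 had 9.8, 5.6 and 3.9 CPM in NTB, 7.5, 5.0 and 7.2 in vehicle mice and 10.1, 10.4 and 13.9 in the BRQ group. The BRQ mice did not overlap either group, with log2 differences of 0.69 ± 0.19 from vehicle and 1.01 ± 0.30 from NTB. All these levels lie near the erythroid-like range of 6.5 to 13.5 CPM, and the thinned share of GMPs with a UMI in BRQ mice, 5.2 to 7.7%, lies within the erythroid-like 0 to 8.8%. Neutrophil-like cells were lower, at 2.3 to 8.0 CPM. Anxa5 had 58.9, 48.9 and 39.0 CPM in NTB, 37.0, 36.4 and 29.3 in vehicle mice and 47.4, 46.0 and 36.8 in the BRQ group. Vehicle lay below NTB in each pool and BRQ above vehicle in each, by ratios of 1.28, 1.26 and 1.26, and BRQ differed from vehicle by 0.34 ± 0.12 on the log2 scale, a difference that was called with the pool as a block (0.35). Anxa3 had 446.1 ± 44.1, 407.4 ± 18.8 and 433.6 ± 39.8 CPM in NTB, vehicle and BRQ mice (n = 3 each), with overlapping groups. Anxa4 had 2.5 to 6.6 CPM in the 9 mice, with a log2 difference of 0.46 ± 0.23. Anxa7 (-0.08 ± 0.10) and Anxa11 (-0.02 ± 0.11) had differences near 0.

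Between BRQ and NTB, a comparison that shares the BRQ mice with the one that chose the genes, Anxa1 differed by 1.42 ± 0.24 on the log2 scale, given as a description. Of the 8 other members 1, Anxa6, was called higher (edgeR adjusted p = 0.0447) and none lower, beside 6.01% of all genes, and 4 of the 9, Anxa1 among them, did not overlap between the groups, beside 25.9%. Nothing is read from these counts. The Anxa6 call was lost without NTB mouse 2 (edgeR adjusted p = 0.163), without NTB mouse 3 (log2 0.67, edgeR adjusted p = 0.335), without BRQ mouse 3 (edgeR adjusted p = 0.103) and with DESeq2 (adjusted p = 0.109). It was also lost without any 1 of the vehicle mice (edgeR adjusted p = 0.0503 to 0.0549), with only these 2 groups in the fit (edgeR adjusted p = 0.0671), with another hashtag call (log2 0.51, edgeR adjusted p = 0.161) and over all cells of GMP-like clusters (log2 0.32, edgeR adjusted p = 0.101). Anxa2 differed by 0.46 ± 0.16 with all BRQ mice above all NTB mice (edgeR adjusted p = 0.0868), and with the pool as a block it passed (edgeR adjusted p = 0.0319). Anxa11 differed by -0.25 ± 0.13 (edgeR adjusted p = 0.294). Anxa3, Anxa4, Anxa5 and Anxa7 did not pass either.

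Between vehicle and NTB, which shares the vehicle mice with the comparison that chose the genes, none of 9 members was called in GMPs, beside 11.3% of all genes, and 2 had an unadjusted p under 0.05. In 2 the groups did not overlap, beside 28.4% of all genes. Anxa5 was lower in all vehicle mice (log2 -0.46 ± 0.16, edgeR adjusted p = 0.0641), and with the pool as a block it was called lower (-0.50, edgeR adjusted p = 0.0043). Anxa7 was higher in all vehicle mice (0.32 ± 0.14, edgeR adjusted p = 0.137). Anxa1 differed by -0.37 ± 0.26 (edgeR adjusted p = 0.395), with overlapping groups. The median log2 difference was -0.23 over the members and -0.01 over all genes.

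**Figure D4:**
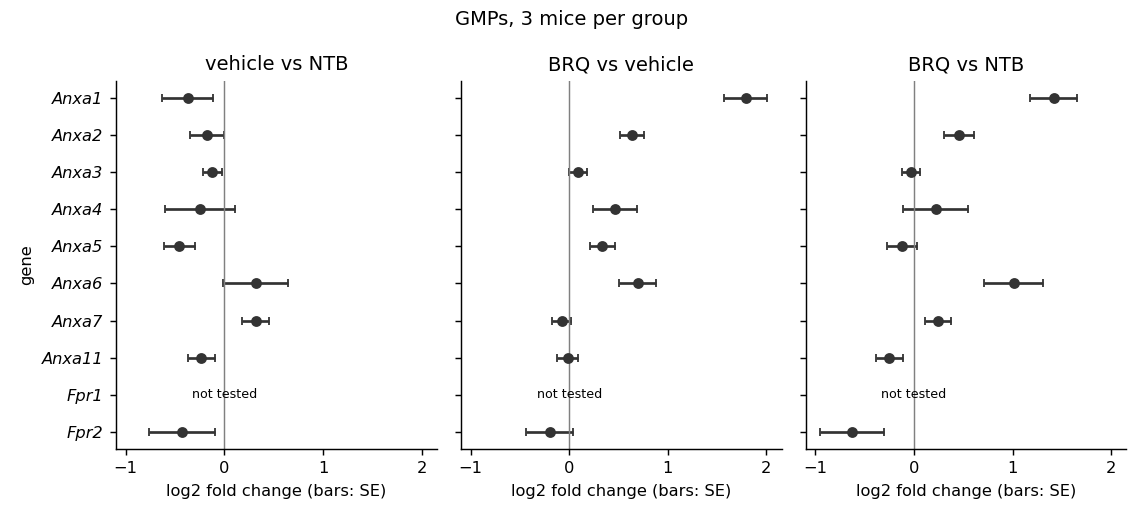
Log2 fold changes (points) with standard errors (bars) of the members in GMPs for vehicle against NTB, BRQ against vehicle and BRQ against NTB, 3 mice per group. Anxa1 has the largest value against both controls, 1.79 and 1.42, and Fpr1 was not tested.

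In the cells under the Ms4a3 limit, which come from the same mice as the GMPs, Anxa1 is again not counted. Of the 8 other members tested none was called higher and 1 lower between BRQ and vehicle (6.17% of 10745 genes called), and 1 higher and 1 lower between BRQ and NTB (18.7%). Anxa2 was higher than in NTB by 0.57 ± 0.12 (edgeR adjusted p = 0.0019) and did not pass against vehicle (0.23 ± 0.11, edgeR adjusted p = 0.250). Anxa11 was lower than in NTB by 0.39 ± 0.11 on the log2 scale (edgeR adjusted p = 0.0135). Anxa6 did not pass there (0.33 ± 0.16 against vehicle, edgeR adjusted p = 0.254).

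Both receptors had few UMIs in GMPs. Fpr1 had no UMI in the 3 NTB mice, which allows up to 3.27 CPM in the mouse with fewest UMIs, and 26 UMIs in all, with 0.1 to 0.6 CPM in vehicle and 0.3 to 1.2 in BRQ mice. Fpr2 had 9.8, 6.3 and 9.1 CPM in NTB, 7.3, 3.8 and 5.0 in vehicle mice and 3.6, 5.8 and 6.5 in the BRQ group, under the 10.4 to 25.9 of erythroid-like cells. The groups overlapped between BRQ and vehicle (log2 -0.20 ± 0.24). Under the Ms4a3 limit Fpr2 was lower in BRQ than in vehicle (-0.98 ± 0.28, edgeR adjusted p = 0.0354), at 3.5 to 3.8 against 5.5 to 8.6 CPM, which are also under the erythroid-like level.

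In neutrophil-like cells the members changed with the cluster. Clusters 6 (led by Camp and Ngp, granule genes), 3 (Ltf and Chil3), 8 (Stfa3 and Retnlg) and 4 (Il1b and Igfbp6, with Cxcr2, a receptor of mature neutrophils, among its 10 leading genes) are given in an order chosen after seeing these genes, without tests, since the genes of these cells made the clusters. Anxa1 was at 1016.3 to 1632.8 CPM in cluster 6, at 2269.1 to 4540.6 in cluster 3, at 1942.9 to 3921.9 in cluster 8 and at 418.4 to 605.1 in cluster 4. Fpr1 was at 0 to 0.9 and 3.0 to 14.2 in clusters 6 and 3, then at 165.2 to 280.1 and 132.8 to 251.0 in clusters 8 and 4. Anxa1 thus stood highest in clusters 3 and 8 and lowest in cluster 4, and Fpr1 stood highest in clusters 8 and 4. Fpr2 was at 93.5 to 201.2, 452.8 to 1068.6, 753.9 to 1031.3 and 332.0 to 613.6 in the same order. Anxa2 was at 80.5 to 148.4, 175.9 to 332.3, 813.7 to 1425.4 and 921.4 to 1275.8. Anxa2 followed Fpr1 more than Anxa1 in this order, while Fpr2 was already high in cluster 3. Anxa3 was at 304.5 to 673.2 in clusters 6, 3 and 8 and at 40.1 to 139.5 in cluster 4, and Anxa11 peaked in cluster 8 at 250.3 to 348.0. Cells of cluster 4 were shallow, with 0.147 of the pool's median UMIs.

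**Figure D5:**
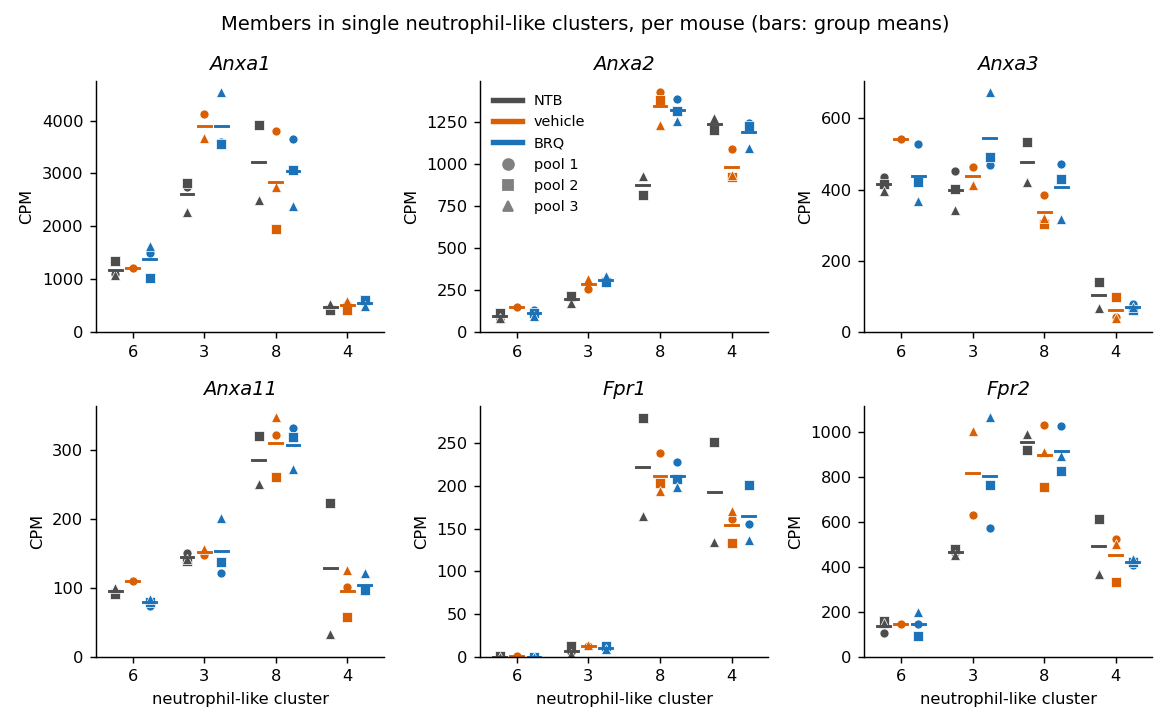
Levels (CPM) of 6 members in each mouse with at least 20 cells of neutrophil-like clusters 6, 3, 8 and 4 (points; shape, pool; color, group; bars, group means). Fpr1 and Anxa2 are high in clusters 8 and 4, and Anxa1 in clusters 3 and 8.

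Over all neutrophil-like cells 2 of 10 members, Anxa2 and Fpr1, were higher in vehicle than in NTB mice and none was lower, beside 13.4% of 8740 genes called. In 6 of the 10 the groups did not overlap, beside 37.9% of all genes. Anxa2 had 161.8, 189.4 and 162.5 CPM in NTB mice and 412.7, 561.4 and 681.1 in the vehicle group (log2 1.68 ± 0.29, edgeR adjusted p = 0.0035). Fpr1 had 7.9, 15.7 and 6.9 in NTB mice and 47.7, 75.5 and 108.4 in the vehicle group (2.90 ± 0.49, edgeR adjusted p = 0.0034). All vehicle mice lay above all NTB mice for both. Fpr2 had 278.3, 318.0 and 334.9 against 380.1, 355.0 and 524.7 CPM, which did not overlap and did not pass (0.44 ± 0.24, edgeR adjusted p = 0.24). Anxa5 had 47.5, 35.1 and 38.6 against 32.6, 17.6 and 21.5 CPM, all lower and not past the threshold (-0.61 ± 0.23, edgeR adjusted p = 0.0975). Anxa1 overlapped, with 1856.5, 2030.9 and 1748.2 in NTB mice and 1946.4, 1261.2 and 1452.3 in the vehicle group (-0.27 ± 0.20, edgeR adjusted p = 0.382).

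The make-up of the neutrophil-like cells moved with these values. Cluster 4 held 2.25 to 6.48% of them in NTB, 48.44 to 75.22% in vehicle and 23.48 to 38.76% in BRQ mice, and cluster 3 held 47.08 to 53.67%, 5.39 to 15.18% and 10.55 to 26.75%. Median UMIs per cell were 6203 to 7598.5 in NTB, 1618.5 to 2262 in vehicle and 2654.5 to 4459 in BRQ mice. Within single clusters, where NTB and vehicle could be compared, none of the members tested (7 in cluster 3, 8 in cluster 8 and 6 in cluster 4) was called between vehicle and NTB, beside 0.699%, 1.54% and 0.551% of genes, and 4, 1 and 0 members had an unadjusted p under 0.05. Fpr1 differed by 0.07 ± 0.27 in cluster 8 (edgeR adjusted p = 0.961) and by -0.30 ± 0.43 in cluster 4 (edgeR adjusted p = 0.903). Anxa2 differed by 0.49 ± 0.19 in cluster 3 (edgeR adjusted p = 0.392), 0.61 ± 0.20 in cluster 8 (edgeR adjusted p = 0.145) and -0.33 ± 0.20 in cluster 4 (edgeR adjusted p = 0.628). Within these clusters the fitted differences of both genes ran from -0.33 to 0.61, from fewer mice and cells. The part of the make-up and of the depth in the differences of Anxa2 and Fpr1 was not tested. Cluster 6 had too few cells in all vehicle mice but 1.

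Between BRQ and vehicle none of 10 members was called in neutrophil-like cells, beside 0.0343% of genes, and 2 had an unadjusted p under 0.05. Those 2 were also the members whose groups did not overlap, beside 10.8% of all genes. Anxa1 had 2469.6, 2039.9 and 2377.4 CPM in BRQ mice, all above the vehicle mice (0.56 ± 0.20, edgeR adjusted p = 0.610). Anxa5 had 44.0, 49.8 and 51.6, also all above (0.90 ± 0.23, edgeR adjusted p = 0.351). Between BRQ and NTB, which shares mice with both comparisons, Anxa2 (1.63 ± 0.28, edgeR adjusted p = 0.0091) and Fpr1 (2.61 ± 0.48, edgeR adjusted p = 0.0102) were called higher, 2 of 10 members beside 5.73% of genes, and 6 did not overlap between the groups, beside 33.6%. Fpr2 differed by 0.74 ± 0.24 (edgeR adjusted p = 0.0901) and was called with the pool as a block (edgeR adjusted p = 0.0080). In cluster 3 alone, where 4.01% of genes were called, 3 of 7 members were higher in BRQ than in NTB mice: Anxa1 (0.58 ± 0.14, edgeR adjusted p = 0.0095), Anxa2 (0.64 ± 0.14, edgeR adjusted p = 0.0060) and Fpr2 (0.77 ± 0.17, edgeR adjusted p = 0.0049).

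In monocyte-like cells no member was called in the 3 comparisons, beside 2.92% of 9517 genes for vehicle against NTB, 4.83% for BRQ against vehicle and 2.77% for BRQ against NTB, and 4, 3 and 4 of 9 members had an unadjusted p under 0.05. Anxa1 had 122.8, 100.6 and 74.6 CPM in NTB, 122.5, 136.2 and 67.4 in vehicle mice and 167.7, 128.2 and 123.9 in the BRQ group, which overlapped between BRQ and vehicle (0.38 ± 0.16, edgeR adjusted p = 0.189). With the pool as a block Anxa1 was called higher in BRQ than in vehicle (0.45, edgeR adjusted p = 0.0055) and than in NTB mice (0.52, edgeR adjusted p = 0.0039). The block also called Anxa5 lower in vehicle than in NTB (-0.38, edgeR adjusted p = 0.0364) and higher in BRQ than in vehicle (0.35, edgeR adjusted p = 0.0128), and Anxa3 higher in BRQ than in vehicle (0.26, edgeR adjusted p = 0.0346). Anxa5 had 126.9, 120.6 and 89.0 CPM in NTB, 94.5, 80.2 and 73.5 in vehicle mice and 111.0, 120.5 and 93.1 in the BRQ group, so vehicle lay lowest in every pool. Anxa6 had 38.6, 57.7 and 49.9 CPM in NTB mice and 38.6, 26.4 and 33.0 in the vehicle group (-0.54 ± 0.16, edgeR adjusted p = 0.0739).

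In HSC/MPP-like cells, with 2 vehicle mice because vehicle mouse 2 had only 10 such cells, none of 8 members tested was called, beside 1.11% of 10025 genes for vehicle against NTB, 0.02% for BRQ against vehicle and 0.988% for BRQ against NTB, and 2, 2 and 1 had an unadjusted p under 0.05. Anxa1 lay between 38.9 and 56.5 CPM in the 8 mice, under the erythroid-like range, and BRQ mice overlapped both other groups (BRQ against vehicle -0.27 ± 0.19). Anxa2 had 31.3, 42.9 and 38.2 CPM in NTB, 50.1 and 65.1 in vehicle mice and 58.9, 60.5 and 55.6 in the BRQ group. Both tumor-bearing groups lay above NTB, and BRQ differed from NTB by 0.62 ± 0.17 (edgeR adjusted p = 0.0761), which passed with the pool as a block (0.63, edgeR adjusted p = 0.0341). Anxa6 had 35.2 and 56.5 CPM in vehicle mice and 29.4, 26.6 and 27.2 in the BRQ group, and Anxa11 27.3 and 28.2 in vehicle mice and 39.2, 44.4 and 41.7 in the BRQ group.

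Genes that work with annexins and the receptors were taken from 6 lists, whose counts stand beside 13.4% of all genes called in GMPs between BRQ and vehicle and 11.3% between vehicle and NTB. Of 7 partners known to bind annexins, 5 were tested in GMPs, and S100a10, the partner of Anxa2, and S100a6 were higher in BRQ than in vehicle. S100a10 had means of 6.70 CPM in NTB, 10.8 in vehicle and 23.7 in BRQ mice, with fitted log2 differences of 0.85 ± 0.18 from vehicle (edgeR adjusted p = 0.0021) and 1.72 ± 0.30 from NTB (edgeR adjusted p = 0.0014). S100a6 had 14.7, 37.3 and 54.9 CPM (0.80 ± 0.26 from vehicle, edgeR adjusted p = 0.0408), and its BRQ and vehicle groups overlapped. In neutrophil-like cells, which shared the lanes, S100a6 had means of 644.1, 5295 and 4674 CPM in the same order of groups. Of 14 genes of the glucocorticoid response tested, a list that bears on Anxa1, 2 rose between BRQ and vehicle, the receptor Nr3c1 (0.45 ± 0.11, edgeR adjusted p = 0.0051) and Tsc22d3, which encodes GILZ (0.43 ± 0.14, edgeR adjusted p = 0.0438), while Klf9 and the metallothionein Mt1 fell (Mt1 -0.81 ± 0.10, edgeR adjusted p = 1.5e-05). The median over these 14 was -0.03, beside 0.00 over all genes.

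Of 9 genes of eicosanoid synthesis tested in GMPs, which make leukotrienes, lipoxins and prostanoids from membrane lipid, 3 rose between BRQ and vehicle and none fell. Thromboxane synthase Tbxas1 rose by 1.33 ± 0.22 (edgeR adjusted p = 0.000232), 5-lipoxygenase Alox5 by 1.12 ± 0.19 (edgeR adjusted p = 0.000332) and phospholipase Pla2g4a by 0.34 ± 0.11 (edgeR adjusted p = 0.0357) on the log2 scale. Alox5 had mean levels of 14.1 CPM in NTB, 4.05 in vehicle and 10.3 in BRQ mice, and it was lower in vehicle than in NTB (-1.59 ± 0.25, edgeR adjusted p = 0.000275). Among 8 other chemoattractant receptors tested, Cxcr4, the receptor of Cxcl12, rose between BRQ and vehicle (0.33 ± 0.09, edgeR adjusted p = 0.0176). Of 22 genes downstream of formyl peptide receptors, 4 rose and 1 fell, among them the kinase subunit Pik3cg (0.55 ± 0.10, edgeR adjusted p = 0.0005) and the exchange factor Prex1 (1.14 ± 0.24, edgeR adjusted p = 0.0025), which rose. Of 9 other calcium-dependent membrane genes, the copines Cpne2 (0.66 ± 0.11, edgeR adjusted p = 0.000217) and Cpne1 (0.53 ± 0.11, edgeR adjusted p = 0.0021) rose. Between vehicle and NTB these 6 lists had 0, 1, 2, 0, 0 and 0 genes higher and 0, 1, 1, 2, 4 and 1 lower in GMPs, in the order partners, glucocorticoid response, eicosanoid synthesis, receptors, receptor signalling and calcium-dependent genes. Pik3cg, Cxcr4 and Cpne2 were each lower in vehicle than in NTB. With the pool as a block 3, 3, 5, 3, 7 and 1 genes of these lists were called between vehicle and NTB, beside 1693 of all 10331 genes. Among the partners S100a6 (1.34, edgeR adjusted p = 0.0003) and S100a10 (0.90, edgeR adjusted p = 0.0439) were higher and S100a11 (-0.31, edgeR adjusted p = 0.002) was lower.

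In neutrophil-like cells genes of the same lists were called between vehicle and NTB, where 13.4% of all genes were called and the cluster make-up differed as given above. None of their genes was called between BRQ and vehicle, beside 0.0343% of all genes, so nothing is read from that. Of 9 receptors tested 6 rose and 1 fell in vehicle mice, with Cxcr2 at 63.4 CPM in NTB and 837.1 in vehicle (3.71 ± 0.47, edgeR adjusted p = 0.0015) and Ccr1 at 33.8 and 289.6 (3.08 ± 0.39, edgeR adjusted p = 0.0015). Of 12 genes of the glucocorticoid response 6 rose and none fell, among them the RNA-binding protein Zfp36 (2.42 ± 0.34, edgeR adjusted p = 0.0016) and the phosphatase Dusp1 (3.00 ± 0.47, edgeR adjusted p = 0.0025). Both also belong to early stress responses. S100a6 rose from 644.1 to 5295 CPM (3.04 ± 0.40, edgeR adjusted p = 0.0015), 1 of 2 partners that rose among 5. Of 22 signalling genes 7 rose and 1 fell, of 10 eicosanoid genes 1 rose and 1 fell, and of 10 calcium-dependent genes 3 rose and 2 fell. The part of the make-up in these differences was not tested for the lists.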

How the data were processed

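The authors deposited raw UMI counts per gene and per hashtag for each barcode, 1 matrix of each kind per pool, made with Cell Ranger 6.0.0 against mm10. Barcodes were kept with at most 15% mitochondrial counts and 500 to 7500 detected genes. The study words the latter limits as transcripts, and reading them as UMIs was an alternative. Hashtags were called with HTODemux (Seurat 5.3.0, quantile 0.99), which left 33.1 to 52.19% of cells negative and called 6.21 to 17.6% as doublets. Scrublet marks were used only in an alternative and to leave clusters unnamed. Cells were clustered with Leiden (scanpy 1.11.5, leidenalg 0.10.2, 2000 variable genes without the members, 30 components, 20 neighbours, resolution 0.8). Counts were summed per mouse and class, with at least 20 cells, and tested over all genes with edgeR 4.0.16 (TMM, filterByExpr, quasi-likelihood, two-sided, Benjamini-Hochberg, R 4.3.3), the 3 groups in 1 fit. DESeq2 1.42.0, another hashtag call, other limits, no filter on low counts, leaving out each mouse and the pool as a block were alternatives. The code was tested on simulated data.

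The pool pairs mice per the labels. Median correlations of deviations were 0.082 within and -0.045 between pools in GMPs, and 0.126 and -0.074 in neutrophil-like cells. The members and gene lists were chosen with earlier results of these data known. The text names the 10 members, per list up to 4 genes with the smallest adjusted p in a comparison, and the genes most like Anxa1 and Fpr2. Some genes that fall under this rule are not reported here. Intervals and limits from counts cover counting error only.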

Additional observations from a re-analysis of the deposited data

Results flagged for a closer look

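The differences of Anxa6 between BRQ and vehicle had opposite signs in 2 cell classes. In GMPs all 3 BRQ mice lay above the vehicle mice (log2 0.69), and in HSC/MPP-like cells all 3 BRQ mice lay below the 2 vehicle mice (log2 -0.53), which was not called. The call in GMPs was lost with DESeq2 and under other settings. The difference between the classes was not tested, and the GMP levels are near those of erythroid-like cells.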

How the results depend on the processing

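With 3 mice per group, and 88 to 177 GMPs in each NTB mouse, small differences of members with few UMIs cannot be resolved. The cause of the changes below was not tested. Of the values for single members 1339 counted as unchanged under the alternatives, 39 became called, 15 lost the call and 26 counted as changed in sign. Unchanged values kept their side of the threshold and their direction. Values not called in either fit also counted as unchanged if they changed sign by less than the standard error of the main fit. No member was called in HSC/MPP-like cells between vehicle and NTB or between BRQ and vehicle under the alternatives run. Fits on single clusters were added after seeing the data.

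With the pool as a replicate block, 1 member was called in GMPs between vehicle and NTB (0 without the block), and in monocyte-like cells 1 between vehicle and NTB and 3 between BRQ and vehicle (0 and 0 without). All genes called with the block were 1693 of 10331, 438 of 9517 and 726 of 9517 in these comparisons. The limits read as UMIs left vehicle mouse 1 (87 cells) as the only vehicle mouse and 2 NTB mice in GMPs, so the vehicle values there rest on 1 mouse, assumed to vary like the other groups. The numbers of all genes called changed with the settings too. For vehicle against NTB in neutrophil-like cells they were 1169 of 8740 in the main fit and 2962 of 6952 with the UMI limits. In GMPs they were 1169 of 10331 and, with the Ms4a3 limit of 2.5, 2509 of 11117. For BRQ against NTB in GMPs they were 621 of 10331 and 1744 of 11117. Nothing is read from the counts of members. The other counts of called members changed as follows. Those in GMPs between BRQ and either control include Anxa1, whose difference chose the genes, and are a description. In GMPs between vehicle and NTB (0) there were 2 with no filter, with only the 2 groups in the fit, with another hashtag call and with an Ms4a3 limit of 2.5, and 0 to 1 with a mouse left out. Between BRQ and vehicle (3) there was 1 with the limits read as UMIs, 2 with DESeq2 and in cluster 2 alone, 4 with no filter, with the block, with the Ms4a3 limit of 2.5, over the GMP-like clusters and in cluster 0 alone, and 2 to 3 with a mouse left out. Between BRQ and NTB (2) there was 1 with DESeq2, with only the 2 groups, with another hashtag call, with the UMI limits and in cluster 1 alone, 5 with the Ms4a3 limit of 2.5, and 1 to 3 with a mouse left out. In neutrophil-like cells between vehicle and NTB (2) there were 4 with the UMI limits, 0 in each of clusters 3, 4 and 8, and 2 to 4 with a mouse left out (4 without vehicle mouse 1). Between BRQ and vehicle (0) there was 1 with the UMI limits. In monocyte-like cells there was 1 with no filter between vehicle and NTB, and between BRQ and vehicle 2 with no filter, 1 with another hashtag call, 1 without cells marked by Scrublet, and 0 to 1 with a mouse left out (1 without BRQ mouse 3).

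These log2 values counted as changed in sign, and smaller sign changes of values not called are not listed. With a mouse left out, Anxa6 ranged from -0.0299 (without NTB mouse 3) to 0.62 in GMPs between vehicle and NTB, and Fpr2 from -0.39 to 0.19 (without vehicle mouse 1) between BRQ and vehicle. In neutrophil-like cells between BRQ and vehicle, Anxa11 ranged from -0.0944 to 0.28 and Fpr2 from -0.012 to 0.50, both lowest without BRQ mouse 3. Anxa1 ranged from -0.0343 (without vehicle mouse 1) to 0.43 in monocyte-like cells between vehicle and NTB. In HSC/MPP-like cells Anxa3 ranged from -0.26 to 0.44 (without NTB mouse 3) between vehicle and NTB, and between BRQ and vehicle Anxa2 from -0.16 to 0.21 and Anxa5 from -0.0785 to 0.20, both lowest without vehicle mouse 1. With the UMI limits (in GMPs 1 vehicle mouse and 2 NTB mice) the values were 0.0372 for Anxa1 and 0.0947 for Anxa11 in GMPs between vehicle and NTB, 0.40 for Anxa7 between BRQ and vehicle, -0.033 for Anxa2, 0.33 for Anxa5 and 0.16 for Anxa11 between BRQ and NTB, and -0.0427 for Anxa1 and -0.0689 for Anxa2 in HSC/MPP-like cells between vehicle and NTB. With another hashtag call they were 0.18 for Anxa7 in neutrophil-like cells between vehicle and NTB, and between BRQ and vehicle -0.0458 for Anxa11 in neutrophil-like, -0.0854 for Anxa11 in monocyte-like and 0.24 for Anxa3 in HSC/MPP-like cells. In GMPs between vehicle and NTB they were 0.22 for Fpr2 without Scrublet marks, 0.13 for Anxa2 with the Ms4a3 limit of 2.5, and 0.15 for Anxa1, 0.21 for Anxa2, -0.16 for Anxa6 and 0.15 for Fpr2 over the GMP-like clusters. Across all alternatives Anxa1 in GMPs between BRQ and vehicle ranged from 1.39 to 2.35.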
